A study of Mus musculus with 16 samples.

Results

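Reactive astrocyte genes are transcripts that astrocytes raise after many kinds of injury, and 9 of them were followed in mouse corpus callosum during cuprizone (CPZ) demyelination and the return to regular diet: Gfap, Vim, Serpina3n, Lcn2, Osmr, Cd44, S1pr3, Steap4 and Aspg. All 16 probes that map to these 9 genes were taken, out of 41174 probes and 18737 named genes on the array. The selection rule was a list of gene names with no threshold on measured values, and the list was drawn up with earlier results of these data known. Of the 16 probes, 12 could be tested, for 7 of the 9 genes. Lcn2 and Steap4 could not be tested and are given by array.

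Astrocytes respond to tissue damage by enlarging, building up intermediate filaments and changing which receptors and secreted proteins they make, a state called reactive gliosis. CPZ in the chow binds copper and is toxic to oligodendrocytes, the cells that make myelin. Astrocytes and microglia react around the stripped fibres, and new oligodendrocytes can wrap them again once the mice eat normal chow. Gfap and Vim encode intermediate filament proteins, Osmr, Cd44 and S1pr3 encode surface receptors, Serpina3n and Lcn2 encode secreted proteins, and Steap4 and Aspg encode enzymes. Several of these genes, among them Vim, Cd44 and Lcn2, are also expressed by other cells.

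Total RNA of corpus callosum from male C57BL/6 mice was hybridised to 16 single-colour Agilent arrays. The 3 untreated controls had normal chow, 3 arrays were from mice fed CPZ for 2 weeks, 4 from mice fed CPZ for 4 weeks, and 6 from mice returned to regular diet after 4 weeks of CPZ. The methods give 0.2% CPZ in the chow and the labels 0.2% to 0.4%, and the methods give an age of 7 to 8 weeks. The labels put the 6 regular diet arrays in 1 group, whereas the methods describe 2 days and 14 days of regular diet, so this group mixes 2 times and its values are given array by array. No transgene or deletion was used. Each array is taken as 1 sample, as the labels number them, so p-values measure the spread between these samples. With bulk RNA, fewer cells of a type and less RNA per cell cannot be told apart.

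The assignment of arrays needs to be stated before any result. The deposited table of processed values names each column by its sample, and those columns were used. Each column matched a single scanner file, with r of at least 0.9993 over 22037 probes against at most 0.8876 for the next best file. For 14 of the 16 columns the matching scanner file was recorded under another sample, in 13 cases under another group. The order of the columns equalled the running number of the arrays in 16 of 16 cases. Values and calls below follow the columns. When the scanner files were instead grouped by the sample they were recorded under, 0 of the 7 tested genes were called in any comparison, and 12 of the 21 differences from untreated stayed above 0 with a range of -1.15 to 0.81 on the log2 scale. By column name 11 of 11 tested myelin markers were below untreated at 2 and at 4 weeks, with medians of -3.30 and -2.75 (log2), and by recorded sample 0 of 11 were, with medians of 1.17 and 0.57. All results here rest on the column names.

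Signals are log2 values scaled to the 75th percentile of each array and set to the median of the 3 untreated arrays, so 0 is the control level and 1 is a doubling. Where a gene had several tested probes, the brightest is described first and called the lead probe. Limma was fitted over the probes that each array of 1 or more groups showed well above background, and a gene was called changed at a Benjamini-Hochberg adjusted p under 0.05 over all tested probes and a difference of at least 2-fold. All 7 lead probes were well above background on 16 of 16 arrays. Between 57.4% and 72.2% of the probes were well above background on an array. General astrocyte markers were well above background (14 of 14 tested), and neutrophil markers mostly were not (3 of 11 tested). Meningeal fibroblast, ependymal and choroid plexus markers were measured as well (7, 6 and 7 genes tested). Their summed levels varied within groups, for choroid plexus from 0.02 to 5.53 (log2) across the 4-week arrays, and their part in the results was not tested.

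**Figure D1:**
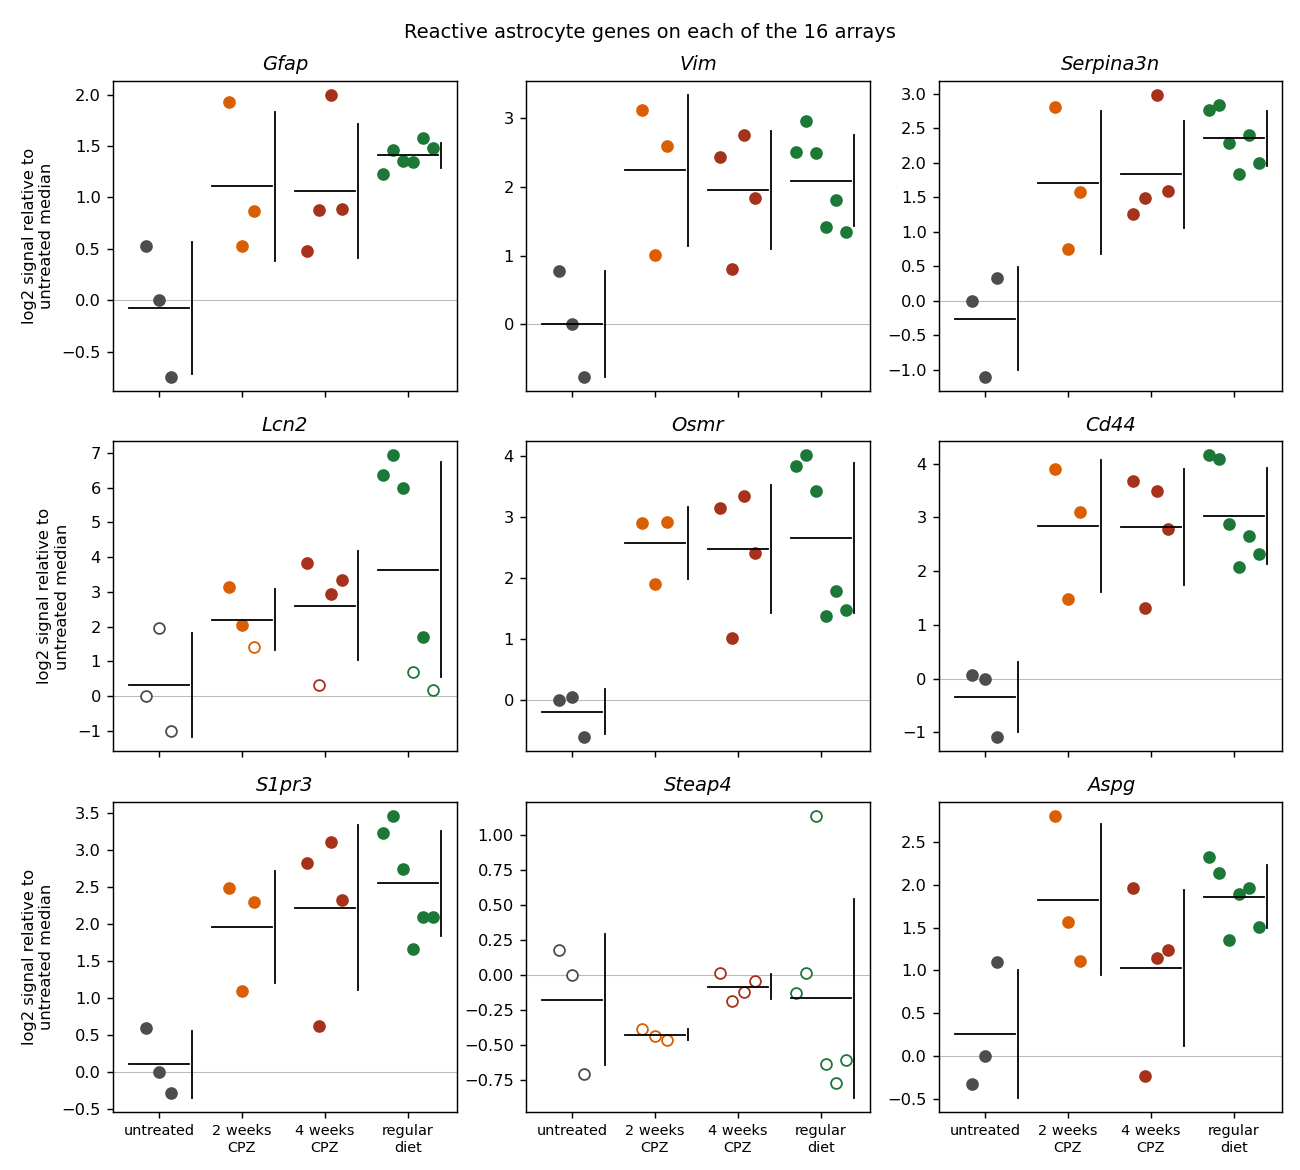
Log2 signal of the 9 genes relative to the untreated median (vertical axes, scales differ) on each of the 16 arrays, by group (horizontal axes), in order of array number. Points are arrays, hollow where the probe was not well above background, horizontal lines are group means and vertical lines show 1 SD on either side; Osmr and Cd44 lie above every untreated array on all 13 other arrays, and all points of Steap4 are hollow.

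After 2 weeks of CPZ, all 7 tested genes were higher than in untreated corpus callosum on every array, without overlap between the groups, but none passed the test. The difference was largest for Cd44, 9.03-fold, then Osmr, 6.79-fold, Vim, 4.73-fold, Serpina3n, 3.93-fold, S1pr3, 3.62-fold, Aspg, 2.96-fold, and Gfap, 2.27-fold. The lowest adjusted p was 0.0928, for Osmr. Without 2-week array 2 Cd44 was 14.4-fold and Vim 7.25-fold higher, and with normexp background correction Osmr was 4.20-fold, Cd44 3.60-fold and Serpina3n 2.35-fold higher, so that Osmr and not Cd44 had the larger difference. Across the 13878 named genes tested, groups were separated in the upward direction for 8.85%, and 0.101% were called higher. With unadjusted p under 0.05, 7 of 7 genes were higher, against 5.24% of all genes, and 7 of 7 were at least 2-fold higher, against 4.16%. Their median log2 difference was 1.97, beside -0.02 over all genes. The one-way test with Tukey comparisons that the methods name also called 0 of the 7. Limma with arrays weighted by quality, a fit that stopped before converging, called 6 at each CPZ time and on regular diet, all but Aspg, and it also called 5.02%, 3.75% and 4.57% of all genes higher. The 2-week difference of Aspg was 1.36-fold in that fit, 1.455-fold by its second probe and 4.59-fold with the slide as a fixed block.

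After 4 weeks of CPZ the same 7 genes gave a median log2 difference of 2.09, beside 0.03 over all genes, and again none was called, against 0.151% of all genes called higher. Cd44 was 8.94-fold, Osmr 6.36-fold, S1pr3 4.33-fold, Serpina3n 4.26-fold, Vim 3.89-fold, Gfap 2.19-fold and Aspg 1.70-fold above untreated. With normexp background correction Osmr was 3.79-fold, Cd44 3.52-fold and Serpina3n 2.40-fold higher, and with the slide as a fixed block Cd44 was 17.2-fold, Osmr 10.04-fold, S1pr3 7.33-fold and Vim 7.14-fold higher. For 5 of the 7 genes every array lay above every untreated array, against 6.56% of all genes, and Gfap and Aspg were the exceptions. An unadjusted p under 0.05 was reached by 6 genes, against 6.28%, and 6 were at least 2-fold higher, against 3.42%. Aspg met neither.

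On regular diet 3 of the 7 genes were called higher than in untreated tissue, against 1.09% of all genes: Cd44, Serpina3n and S1pr3. Cd44 was 10.3-fold higher (log2 difference 3.37 ± 0.64 SE, limma adjusted p = 0.0222, higher on 6 of 6 arrays). Serpina3n was 6.14-fold higher (2.62 ± 0.46, limma adjusted p = 0.0164, 6 of 6). S1pr3 was 5.43-fold higher (2.44 ± 0.53, limma adjusted p = 0.0484, 6 of 6). Osmr at 7.17-fold had an adjusted p of 0.0605, Gfap at 2.79-fold 0.0700, Vim at 4.26-fold 0.104 and Aspg at 3.04-fold 0.168 by limma. All 7 genes lay above every untreated array, against 5.96% of all genes, all 7 had an unadjusted p under 0.05, against 7.28%, and all 7 were at least 2-fold higher, against 5.52%. These calls depended on the few controls: without any 1 of the 3 untreated arrays, 0 genes were called. Over all named genes 0.536%, 0.322% and 0.0286% were then called higher. With 1 array left out the differences ran from 3.00 to 3.57 for Cd44, from 2.20 to 2.91 for Serpina3n and from 2.25 to 2.69 for S1pr3 on the log2 scale. None of the 3 was called with normexp background correction, which lowered them to 1.95, 1.67 and 1.91, nor with the methods' one-way test, which leaves them as they are, nor with the replicate number as a block, which gave 3.85, 2.83 and 2.83. Normexp put Osmr at 4.35-fold, above Cd44 at 3.87-fold. S1pr3 was called in 10 of 28 alternatives with the columns as named, and it missed the threshold with no filter on dim probes (limma adjusted p = 0.0624) and after quantile normalization (0.0505). Without regular diet array 1 the count was 1, Serpina3n.

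**Figure D2:**
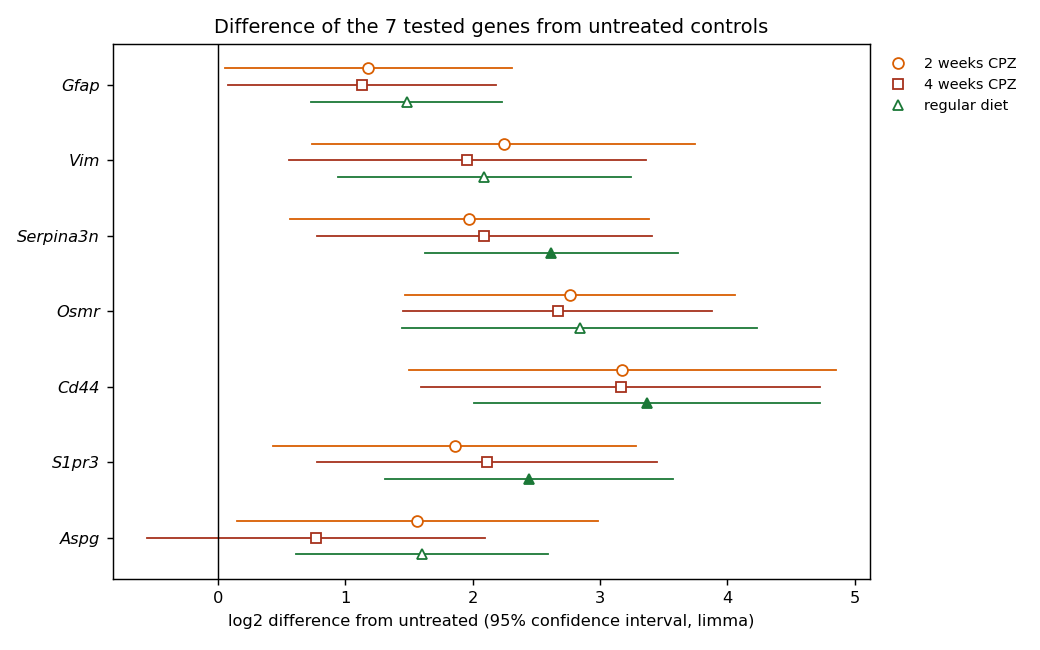
Log2 difference of the lead probe from untreated controls (horizontal axis) for the 7 tested genes (vertical axis) after 2 and 4 weeks of CPZ and on regular diet. Symbols are limma estimates, filled where called, and lines are 95% confidence intervals. Cd44 is highest in each comparison (with normexp background correction Osmr lies above Cd44), and the 4-week interval of Aspg runs from -0.56 to 2.09.

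The filament genes come first. Gfap, the filament protein by which reactive astrocytes are usually stained, read 0.53, 0.00 and -0.75 on untreated arrays 1 to 3. It read 1.92, 0.53 and 0.87 after 2 weeks and 0.48, 0.88, 2.00 and 0.89 after 4 weeks. On regular diet it read 1.23, 1.47, 1.35, 1.34, 1.58 and 1.48. The CPZ groups therefore came close to the highest control, with 2-week array 2 equal to it at 2 decimals and 4-week array 1 below it, whereas the 6 regular diet arrays lay together with an SD of 0.12. The 2-week difference was 1.18 ± 0.50 (SE, 3 against 3 arrays, limma adjusted p = 0.493) and the 4-week difference 1.13 ± 0.47 (4 against 3 arrays, limma adjusted p = 0.437).

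The second Gfap probe, which is designed to another reference transcript, differed from the first at 4 weeks. It read 2.75, 0.66, 2.26 and 2.17 on 4-week arrays 1 to 4, all above the controls at 0.37, 0.00 and -0.52. Its 4-week difference was 2.01 ± 0.51 (limma adjusted p = 0.154), beside 1.32 at 2 weeks and 1.78 on regular diet. On the regular diet arrays this probe ran from 1.28 to 2.41, with an SD of 0.45. On 4-week array 1 the 2 probes read 0.48 and 2.75. The difference between 4 and 2 weeks was 0.69 by this probe and -0.05 by the lead probe, and neither was called.

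Vim, the filament protein that partners with Gfap in reactive astrocytes, read 0.77, 0.00 and -0.77 in controls. After 2 weeks it read 3.12, 1.01 and 2.59, and after 4 weeks 2.44, 0.80, 2.76 and 1.84. Array 2 of each CPZ group was the lowest and just cleared the highest control. The 2-week difference was 2.24 ± 0.67 (limma adjusted p = 0.224) and the 4-week difference 1.96 ± 0.62 (limma adjusted p = 0.269). On regular diet Vim read 2.51, 2.97, 2.50, 1.42, 1.81 and 1.35, so arrays 1 to 3 were all above arrays 4 to 6.

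Other filament genes were listed for comparison. Of 8 listed genes 5 were tested and none was called in any comparison, with medians of 0.05, 0.33 and -0.24 at 2 weeks, at 4 weeks and on regular diet. Nes (nestin), which immature and reactive astrocytes make, differed by 1.40, 0.87 and 1.06. Synm, a filament linker, differed by -1.28, -0.97 and -1.20. Krt8 differed by 0.05, 0.58 and -0.24.

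Osmr, the receptor subunit for the cytokine oncostatin M, had the lowest adjusted p of the 7 genes at both CPZ times. Untreated arrays read 0.00, 0.04 and -0.61. The 2-week arrays read 2.90, 1.90 and 2.92 and the 4-week arrays 3.14, 1.02, 3.34 and 2.42. On regular diet Osmr read 3.84, 4.01 and 3.43 on arrays 1 to 3 and 1.37, 1.79 and 1.47 on arrays 4 to 6, so arrays 1 to 3 were the highest. The 2-week difference was 2.76 ± 0.58 (limma adjusted p = 0.0928), the 4-week difference 2.67 ± 0.54 (limma adjusted p = 0.0904) and the regular diet difference 2.84 ± 0.65 (limma adjusted p = 0.0605). Without 4-week array 2 Osmr was called at both CPZ times (log2 differences 2.76 and 3.15, limma adjusted p = 0.0463 and 0.0239), and S1pr3 at 4 weeks (2.65, limma adjusted p = 0.0420), against 0.159% and 0.584% of all genes called higher at 2 and 4 weeks in that fit. The second Osmr probe did not stand well above background in untreated tissue, so only a bound can be given: at least 2.59-fold higher at 2 weeks, 2.56-fold at 4 weeks and 2.52-fold on regular diet. It passed the filter only through the groups where it was high.

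The pathway of oncostatin M runs through a pair of Osmr with the shared subunit gp130 (Il6st) and the factor STAT3. Genes listed for ligands and receptors of Osmr or gp130 and for STAT3 signalling were followed too. Of 21 listed ligands, receptors and signalling genes, 16 were tested and none was called in any comparison, with medians of 0.31, 0.26 and 0.35. Socs3, the feedback inhibitor of the pathway, had the largest difference (2.10 at 2 weeks, limma adjusted p = 0.131, 1.38 at 4 weeks and 2.01 on regular diet). Clcf1 (1.79, 0.86 and 1.47) and Cntf (1.56, 1.22 and 1.71), listed as genes for gp130 ligands, were next. Osm itself was well above background on at most 3 of the 16 arrays and Il6 on 2, so neither was tested.

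Because STAT3 is known to act on Gfap, the RefSeq promoters of the 9 genes (GRCm38.p6, 250 bases before to 50 after the start, 1 for each gene) were searched on both strands for TTCNNNGAA, the STAT core, which reads the same on both strands. It was present in 2 of the 9, Gfap and Steap4, and in 8.30% of all 32851 promoters. The Gfap match begins 2 bases before the start and runs 7 bases into the transcript, and the Steap4 match begins 116 bases before the start. TGACTCA or TGAGTCA, the AP-1 site in its 2 orientations, was in 0 of 9 (5.20% of all promoters), and the NF-kB site was in 2 of 9, Vim and Steap4 (8.46%). The STAT and NF-kB matches of Steap4 do not overlap. These are matches of letters and not tested sites. Gfap and Steap4 are printed because they hold the STAT core, Gfap measured well on all arrays and Steap4 on none, and Osmr because it was well separated and held none of the 3 motifs. Each runs 5′ to 3′ from 250 bases before the start, with the STAT core in capitals.
Gfap, chr11:102897194-102897450, minus strand: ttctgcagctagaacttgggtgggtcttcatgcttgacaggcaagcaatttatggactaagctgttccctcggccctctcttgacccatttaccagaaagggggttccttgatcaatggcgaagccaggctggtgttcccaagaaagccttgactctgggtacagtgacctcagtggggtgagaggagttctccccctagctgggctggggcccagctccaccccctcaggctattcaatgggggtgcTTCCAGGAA
Steap4, chr5:7960222-7960471, plus strand: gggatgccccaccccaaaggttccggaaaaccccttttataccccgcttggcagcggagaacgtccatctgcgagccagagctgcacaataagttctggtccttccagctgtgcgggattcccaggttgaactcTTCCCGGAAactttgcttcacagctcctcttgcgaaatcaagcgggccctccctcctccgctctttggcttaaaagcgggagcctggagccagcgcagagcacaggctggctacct
Osmr, chr15:6874314-6874563, minus strand: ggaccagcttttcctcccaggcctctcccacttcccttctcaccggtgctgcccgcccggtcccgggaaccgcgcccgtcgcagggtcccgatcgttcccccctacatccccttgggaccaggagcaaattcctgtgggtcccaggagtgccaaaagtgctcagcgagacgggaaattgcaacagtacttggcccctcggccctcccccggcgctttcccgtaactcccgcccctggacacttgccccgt

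Cd44, the receptor for hyaluronan and osteopontin, had the largest differences from untreated of the 7 genes in the main limma fits. With normexp background correction Osmr lay above it. It read 0.07, 0.00 and -1.09 in controls, 3.90, 1.49 and 3.11 after 2 weeks, and 3.68, 1.31, 3.50 and 2.79 after 4 weeks. On regular diet it read 4.15, 4.09, 2.88, 2.08, 2.66 and 2.32. Every treated array was above every control by more than 1 log2 unit. The 2-week difference was 3.17 ± 0.74 (limma adjusted p = 0.126) and the 4-week difference 3.16 ± 0.70 (limma adjusted p = 0.109). A second probe gave 3.26, 2.94 and 3.31 and was also called on regular diet (limma adjusted p = 0.0175). The remaining Cd44 probe stayed at background on all 16 arrays and was not tested.

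Among 12 genes for Cd44 ligands and hyaluronan handling, 10 were tested in the CPZ comparisons and 11 on regular diet. The gene added on regular diet, Has2, passed the filter only through those arrays, and without it the medians over 10 genes were -0.11, -0.09 and 0.23. Spp1 (osteopontin), a ligand that phagocytes make in abundance, was the only gene of the list called, on regular diet (log2 difference 6.05, limma adjusted p = 0.0262). In that comparison 1.09% of all genes were called higher. Spp1 gave 3.54 at 2 weeks and 5.76 at 4 weeks. Tnfaip6, which crosslinks hyaluronan, differed by -1.72, -1.99 and -1.47. Msn, which ties Cd44 to the cytoskeleton, differed by 0.95, 1.87 and 1.73, and Hmmr, another hyaluronan receptor, by 0.13 at 4 weeks and 0.78 on regular diet. At 2 weeks Hmmr was not above background on any array, and it was at least 2.70-fold lower than in controls.

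S1pr3, a receptor for the lipid sphingosine 1-phosphate, read 0.60, 0.00 and -0.28 in controls. After 2 weeks it read 2.49, 1.10 and 2.30 and after 4 weeks 2.82, 0.62, 3.11 and 2.32. Of these, 4-week array 2 lay closest to the highest control. On regular diet it read 3.22, 3.46 and 2.74 on arrays 1 to 3 and 1.66, 2.10 and 2.10 on arrays 4 to 6. The 2-week difference was 1.86 ± 0.63 (limma adjusted p = 0.316) and the 4-week difference 2.11 ± 0.59 (limma adjusted p = 0.200). The second S1pr3 probe failed to clear background on all 3 untreated arrays and passed the filter only through the groups where it was high. It leaves bounds of at least 1.94-fold at 2 weeks, 1.96-fold at 4 weeks and 2.55-fold on regular diet, and no call is taken from it.

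The other sphingosine 1-phosphate genes gave medians near 0 (-0.09, -0.03 and -0.09) over 8 tested genes of 10, and none was called. Sphk1, a kinase that makes the lipid, differed by 1.84 at 2 weeks (limma adjusted p = 0.0928), 0.68 at 4 weeks and 0.61 on regular diet. S1pr5, a receptor that oligodendrocytes carry, differed by -3.06, -2.73 and -2.07. Spns2, which exports the lipid, differed by -0.38, -0.94 and -0.63. S1pr3 and S1pr5 thus lay on opposite sides of 0 in all 3 comparisons.

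Serpina3n, a secreted protease inhibitor, read 0.00, -1.11 and 0.33 in controls. It read 2.81, 0.75 and 1.58 after 2 weeks and 1.26, 1.49, 2.98 and 1.59 after 4 weeks. On regular diet it read 2.76, 2.84, 2.29, 1.84, 2.41 and 2.00. The regular diet arrays were all more than 1 log2 unit above the highest control, whereas 2-week array 2 was 0.75 against a control at 0.33. The 2-week difference was 1.97 ± 0.62 (limma adjusted p = 0.261) and the 4-week difference 2.09 ± 0.58 (limma adjusted p = 0.197). Serpina3n belongs to a cluster of similar genes, and a probe may also bind transcripts of its neighbours.

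Lcn2 (lipocalin 2), a secreted protein that binds iron carriers, had the widest spread of all 9 genes. It did not stand well above background on the 3 untreated arrays but did on 2 of 3 arrays at 2 weeks, 3 of 4 at 4 weeks and 4 of 6 on regular diet, so it was not tested. Untreated arrays read 0.00, 1.95 and -1.0, 2-week arrays 3.14, 2.05 and 1.40, and 4-week arrays 3.82, 0.32, 2.93 and 3.35. On regular diet Lcn2 read 6.36, 6.92 and 5.98 on arrays 1 to 3, and 0.70, 1.70 and 0.17 on arrays 4 to 6. The first 3 exceeded every other array in the series, and the last 3 lay within the range of the controls. As bounds over the groups, Lcn2 was at least 1.45-fold higher at 2 weeks, at least 1.91-fold at 4 weeks and at least 3.92-fold on regular diet, and on regular diet arrays 1, 2 and 3 taken singly at least 25.6-, 37.6- and 20.0-fold. The labels do not say which regular diet arrays came after which time.

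Neutrophils also make Lcn2, and their markers are given beside it. Of 11 neutrophil markers 8 were too dim to test, each well above background on at most 1 of the 16 arrays, and 3 were tested, with log2 differences of 0.52, 0.27 and -0.25 for S100a8, 0.32, 0.23 and -1.14 for S100a9 and 0.44, -0.15 and 0.25 for Mpo. Their summed level (log2 over the 75th percentile) was -1.51, -2.51 and -1.95 on regular diet arrays 1 to 3, below the range of -1.93 to -1.08 in controls on arrays 2 and 3 and inside it on array 1. The part of these cells in the Lcn2 readings was not tested. Of 5 genes for Lcn2 receptors and iron handling none was called. Hpx, which binds haem, cleared background on 1 of 3 untreated arrays, 3 of 3 at 2 weeks, 1 of 4 at 4 weeks and 2 of 6 on regular diet, so it passed the filter only through the 2-week arrays and no difference is given. The other 4 had medians of 0.026, 0.11 and 0.098. The uptake receptor Lrp2 differed by 1.60, 0.97 and 1.85, and the receptor Slc22a17 by -0.55, -0.35 and -0.54.

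Steap4, a metalloreductase of iron and copper, did not stand clear of background on any of the 16 arrays by either probe. Its readings ran from -0.78 to 1.14 over the 16 arrays by the first probe and from -1.02 to 0.04 by the second, and these levels have no order. Of the related Steap genes, Steap1 differed by 0.41, 1.13 and 0.63 and Steap2 by 0.42, 1.01 and 0.51, and neither was called.

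Aspg, an enzyme of the asparaginase family, had the smallest 4-week difference of the 7 tested genes. Controls read -0.32, 0.00 and 1.10, 2-week arrays 2.81, 1.56 and 1.11, and 4-week arrays 1.96, -0.23, 1.15 and 1.23. Regular diet arrays read 2.32, 2.14, 1.35, 1.89, 1.97 and 1.50. The third control was as high as the lowest 2-week array to within 0.02, and 4-week array 2 lay among the controls. The 4-week difference was 0.77 ± 0.59 (limma adjusted p = 0.777). The second probe gave smaller differences of 0.54, 0.50 and 0.82, and on it the 2-week arrays overlapped the controls.

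Between 4 and 2 weeks of CPZ none of the 7 genes was called, and none reached an unadjusted p under 0.05, which 5.38% of all named genes did upward and 3.91% downward. Of all named genes 0% were called higher in this comparison and 0.0144% lower. The differences ran from -0.80 for Aspg (95% interval -2.12 to 0.53) to 0.26 for S1pr3 (-1.08 to 1.59). For Cd44 it was -0.01 (-1.58 to 1.56), for Osmr -0.10 (-1.31 to 1.12), for Gfap -0.05 (-1.10 to 1.01), for Vim -0.28 (-1.69 to 1.12) and for Serpina3n 0.12 (-1.20 to 1.44). These intervals leave room for a change of more than 2-fold in either direction for 6 of the genes, and downward only for Aspg. The order of these times is therefore not settled for any of the 7 genes.

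Regular diet against 4 weeks of CPZ gave the same outcome, with 0 of 7 genes called, 0 with an unadjusted p under 0.05, and 0% of all named genes called higher or lower (6.61% and 13.1% had an unadjusted p under 0.05 upward and downward). The count over all genes depended on the scaling, with 39 higher and 349 lower after median scaling and 14 higher and 83 lower after quantile normalization. All 7 differences were above 0, from 0.13 for Vim (95% interval -0.92 to 1.19) to 0.84 for Aspg (-0.07 to 1.74). Serpina3n differed by 0.53 (-0.38 to 1.43), Gfap by 0.35 (-0.33 to 1.03), S1pr3 by 0.33 (-0.71 to 1.36), Cd44 by 0.21 (-1.03 to 1.45) and Osmr by 0.17 (-1.10 to 1.45). By group mean, regular diet was highest for Gfap, Serpina3n, Osmr, Cd44, S1pr3 and Aspg, and 2 weeks of CPZ for Vim, and untreated was lowest for each of these genes. Within slides 2 and 3, Vim, Osmr, Cd44 and S1pr3 were lower on regular diet than at 4 weeks, from -0.16 (S1pr3, slide 3) to -0.60 (Vim and Osmr, slide 2), and on slide 4 they were higher, from 0.83 (Cd44) to 1.71 (Osmr), so the direction of these pooled differences did not hold within slides. Gfap and Serpina3n were lower on slide 2 (-0.52 and -0.56) and higher on slides 3 and 4, and Aspg was higher on all 3 slides. None of the 7 genes was called between 4 and 2 weeks or between regular diet and 4 weeks. Regular diet was not tested against 2 weeks of CPZ.

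The 16 arrays sat on 4 slides, all scanned on 1 day, and each slide held several groups. Within slide 1, the 2-week arrays lay above the untreated array of that slide by 0.87 (Gfap) to 3.44 (Cd44). Within slides 2 and 3, the 4-week differences ran from 0.86 (Aspg) to 4.78 (Cd44). On the 3 slides that held untreated and regular diet arrays, differences ran from 0.65 (Vim, slide 1) to 4.49 (Cd44, slide 3). All 42 of these within-slide differences from untreated were above 0. With the slide as a random block, Osmr was called at 2 weeks (2.93, limma adjusted p = 0.0377), Osmr and Cd44 at 4 weeks, and 5 genes on regular diet, against 0.685%, 1.48% and 1.54% of all genes called higher in those fits. With the slide as a fixed block 0, 3 and 4 of the 7 genes were called, against 0.432%, 2.19% and 1.23%.

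**Figure D3:**
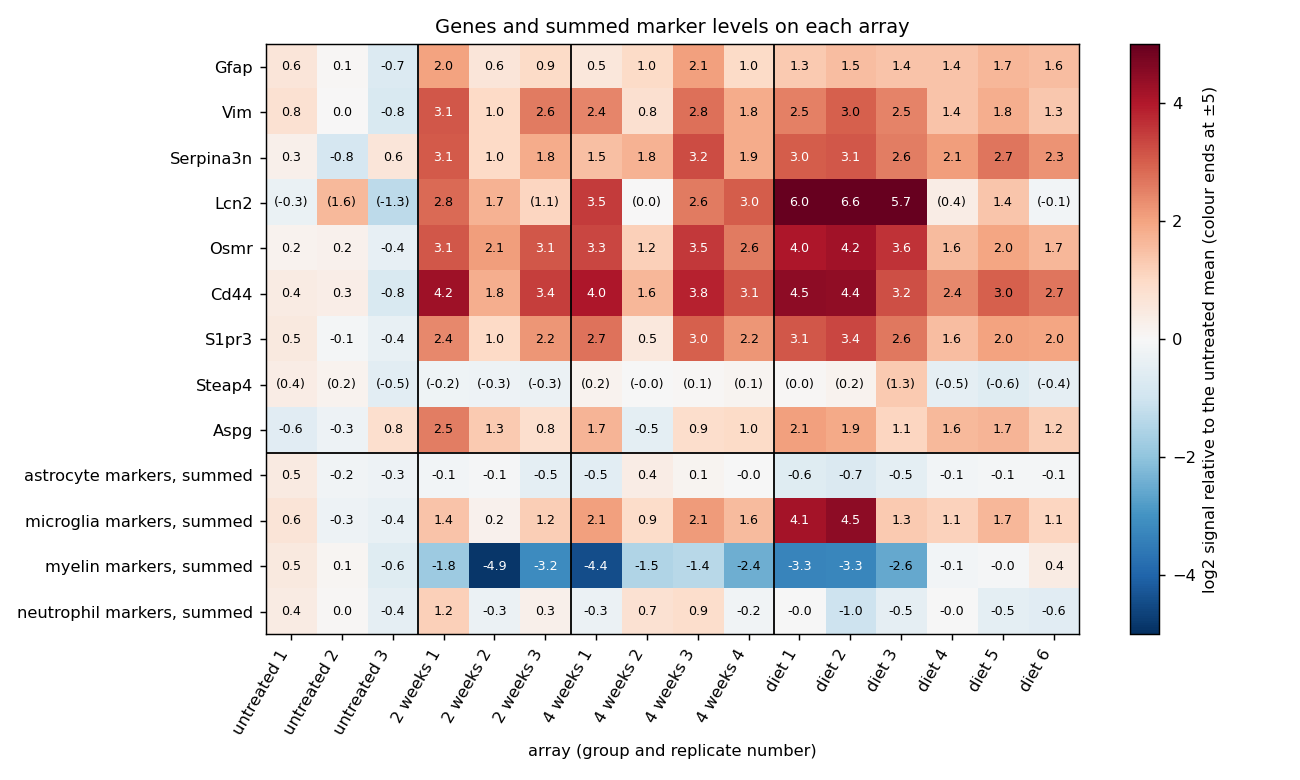
Log2 signal relative to the untreated mean for the 9 genes and for the summed signal of 4 marker lists (rows) on the 16 arrays (columns, by group and array number). Colour and printed number give the value, in brackets where the probe was not well above background; Lcn2 is bracketed on all untreated arrays, so its high values on regular diet arrays 1 to 3 stand for at least 20.0-fold to 37.6-fold, and myelin markers are 2.6 to 3.3 below the untreated mean there.

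Array 2 stood low in both CPZ groups. Both of these arrays sat on slide 4, which held no untreated array and also carried 4-week array 4 and regular diet array 3. After 4 weeks it was the lowest array for Vim, Osmr, Cd44, S1pr3, Aspg and Lcn2. It was not the lowest for Serpina3n or the lead probe of Gfap, but was for the second Gfap probe, at 0.66. After 2 weeks it was the lowest for Gfap, Vim, Serpina3n, Osmr, Cd44 and S1pr3, and not for Aspg or Lcn2. The 2 arrays differed in myelin markers, whose summed level (log2 over the 75th percentile) was 8.37 on 4-week array 2, within the range of 5.46 to 8.49 in its group, and 5.02 on 2-week array 2, the lowest of all 16 arrays. Microglia and macrophage markers were lowest in their group on both arrays, at 6.05 and 5.35. Neuron markers were higher on these arrays, at 9.24 and 9.12, than on the other 14, which lay between 7.44 and 9.08. The part of these markers and of the slide in the low values was not tested. The replicate numbers name samples, and no pairing by number is described.

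The 6 regular diet arrays also varied in the markers of other cells. Gfap ran over only 0.35 log2 units across them by its lead probe, but from 1.28 to 2.41 by its second probe. Lcn2, Osmr, Vim, Cd44 and S1pr3 varied as given above. Myelin markers summed to 6.58, 6.63, 7.33, 9.74, 9.83 and 10.3 on arrays 1 to 6, with untreated arrays between 9.29 and 10.4. Microglia and macrophage markers summed to 9.29, 9.61, 6.47, 6.29, 6.79 and 6.23 on the same arrays, so arrays 1 and 2 were the highest of the 6 in these markers and arrays 1 to 3 the lowest in myelin markers. The labels do not give the time on regular diet of any array, and these arrays were not grouped or tested against each other.

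Microglia react in the same tissue, and their markers are given beside the genes described. The summed level of microglia and macrophage markers ranged from 4.76 to 5.78 in controls, 5.35 to 6.57 at 2 weeks, 6.05 to 7.27 at 4 weeks and 6.23 to 9.61 on regular diet. Of 11 tested markers of 12 listed, 0, 1 and 0 were called in the 3 comparisons with untreated. Of all genes 0.101%, 0.151% and 1.09% were called higher there. The marker medians were 0.44, 1.16 and 1.66. The marker called was Fcrls at 4 weeks (2.52, limma adjusted p = 0.0454), which gave 1.78 at 2 weeks and 3.19 on regular diet. Tyrobp, a microglial signalling adaptor, differed by 1.83, 2.42 and 3.25, Trem2, its receptor partner, by 1.51, 2.40 and 2.98, and Aif1 (Iba1) by 0.76, 1.69 and 2.18. These are the markers with the largest differences. At 2 weeks 7 of the 11 tested markers were above 0 and 4 below, P2ry12 (-0.60), Itgam (-0.47), Siglech (-0.42) and Tmem119 (-0.24), while all 11 were above 0 at 4 weeks and on regular diet. The part of these cells in the results for Cd44, Lcn2 and the other genes was not tested. Myelin and oligodendrocyte markers had medians of -3.30, -2.75 and -1.68 over 11 tested genes, with none called, and Opalin (-5.05 at 2 weeks), Mog (-4.48) and Mal (-3.91) had the largest differences.

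General astrocyte markers gave medians near 0 and overlapping summed levels. Their median difference was -0.01 at 2 weeks, 0.19 at 4 weeks and -0.20 on regular diet over 14 tested genes, and none was called. Upward, 3, 3 and 3 of them had an unadjusted limma p under 0.05, against 5.24%, 6.28% and 7.28% of all genes. Downward, 1, 0 and 1 did. Groups were separated upward for 3, 4 and 0 markers, against 8.85%, 6.56% and 5.96% of all genes, and downward for 2, 0 and 0. The summed level was 8.47 to 9.19 in controls, 8.24 to 8.67 at 2 weeks, 8.23 to 9.12 at 4 weeks and 8.02 to 8.65 on regular diet, so the groups overlapped. Slc1a3, the glutamate transporter GLAST, differed by 1.05, 1.01 and 0.76, the gap junction gene Gjb6 by 1.00, 0.65 and -0.23, and S100b by -1.01, -0.27 and -0.27. The difference between the reactive genes and this list was not tested.

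Markers of the remaining cell types had medians between -0.58 and 1.06 in the 3 comparisons with untreated, and none was called. The medians were -0.20, -0.15 and -0.35 for endothelium and pericytes (11 genes, among them Tek, Ly6c1 and Kdr), 0.51, -0.12 and -0.10 for meningeal fibroblasts (7 genes, among them Slc6a13, Col1a1 and Col1a2), and -0.58, 0.05 and 0.03 for ependyma (6 genes, among them Rarres2, Ccdc153 and Tmem212). Choroid plexus markers gave 0.20, 1.06 and 0.13 (7 genes, among them Aqp1, Kl and Ttr), and oligodendrocyte precursor markers -0.31, -0.48 and 0.05 (5 genes, among them Enpp6, Gpr17 and Bmp4). Neuron markers gave -0.32, 0.26 and -0.45 (8 genes, among them Slc17a7, Syt1 and Snap25), and red blood cell markers -0.14, 0.27 and -0.09 (3 genes, Alas2, Hba-a1 and Hbb-bt).

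**Figure D4:**
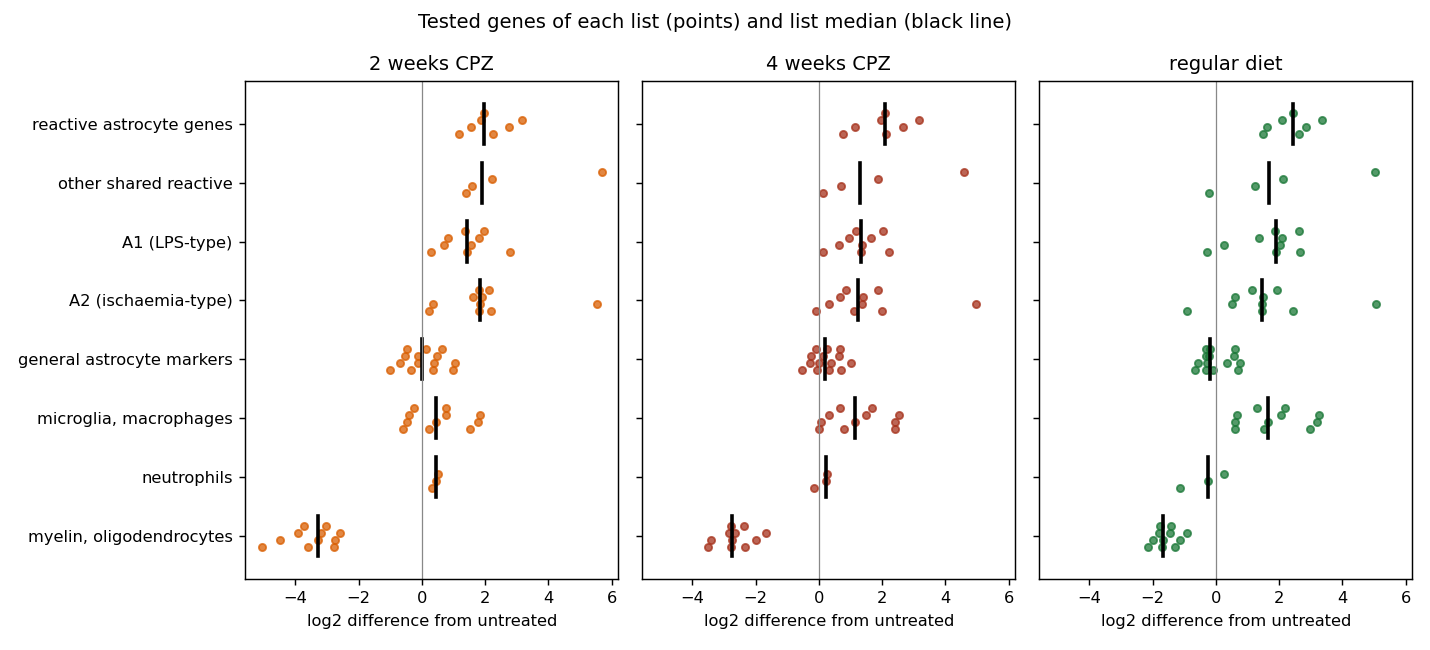
Log2 difference from untreated (horizontal axes) of every tested gene (points) in 8 gene lists (rows) after 2 weeks of CPZ, 4 weeks of CPZ and on regular diet, with the list median as a black line; Tgm1 and Ptx3 in the A2 row are drawn at their measured values although controls were at background. The reactive astrocyte genes have medians of 1.97, 2.09 and 2.44, and the general astrocyte markers of -0.01, 0.19 and -0.20.

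Other genes known from reactive astrocytes were followed for comparison. A shared set of 4 further genes had medians of 1.90, 1.29 and 1.67, and Cxcl10, a chemokine, was called higher in all 3 comparisons with untreated tissue, by 5.68 at 2 weeks, 4.59 at 4 weeks and 5.04 on regular diet on the log2 scale (limma adjusted p = 0.0304, 0.0482 and 0.0026). Of all genes 0.101%, 0.151% and 1.09% were called higher in these comparisons, and the calls in the lists that follow are to be read against the same shares. Timp1, an inhibitor of matrix proteases, differed by 2.22, 1.88 and 2.11, Cp (ceruloplasmin), which carries copper, by 1.58, 0.69 and 1.23, and Hspb1, a small heat shock protein, by 1.39, 0.14 and -0.23, and none of these was called.

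Genes first listed for astrocytes after lipopolysaccharide (A1) had medians of 1.43, 1.33 and 1.89 over 9 tested genes of 12. None was called under CPZ, and 4 of the 9 were called higher on regular diet, against 1.09% of all genes: Psmb8, an immunoproteasome subunit (2.62, limma adjusted p = 0.0424), Iigp1, an interferon-induced GTPase (2.66, 0.0069), and the class I genes H2-D1 (2.10, 0.0161) and H2-T23 (1.88, 0.0346). The class I genes belong to a family of near-identical members that a probe may not tell apart. Gbp2 differed by 1.95, 1.65 and 2.02, Serping1 by 1.54, 1.33 and 1.89 and Srgn by 0.82, 0.95 and 1.38, and none of these was called.

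Genes first listed after ischaemia (A2) had medians of 1.83, 1.24 and 1.46 over 10 tested genes of 12. S100a10, a partner of annexin A2, was called higher at 2 weeks (2.19, limma adjusted p = 0.0304), at 4 weeks (1.87, 0.0454) and on regular diet (1.46, 0.0109). Cd14, a coreceptor for bacterial products that microglia also express, was called on regular diet (2.45, limma adjusted p = 0.0489). Tgm1, a transglutaminase, did not clear background on any untreated array and was at least 26.5-fold higher at 2 weeks, 17.6-fold at 4 weeks and 18.8-fold on regular diet, with no call. Ptx3 was likewise at background in controls and was at least 2.13-, 1.46- and 2.16-fold higher. With both genes at their bounds the list medians were 1.81, 0.99 and 1.29. Emp1 differed by 2.13, 1.35 and 1.49. Neither the A1 nor the A2 list stood apart from the other by a test, since none was run between them.

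The likeness of patterns was described by the root mean square (RMS) difference between 2 genes over the 16 arrays, each relative to its untreated mean, with no test. Among the 7 genes themselves Vim and S1pr3 were most alike, with an RMS difference of 0.38 log2 units, then Osmr and Cd44 at 0.61 and Serpina3n and S1pr3 at 0.62. Gfap and Cd44 were least alike at 1.92. Against 13975 other named genes, the nearest to Gfap was Parp3 (0.37), followed by Cybrd1 and Cxcr4. Flnc was nearest to Vim (0.31), followed by S100a6 and Tor3a. Cd14 was nearest to S1pr3 (0.39), ahead of Flnc and Ifi209, and for Serpina3n it followed Lag3 (0.50) and B2m. Trim30a was nearest to Osmr (0.45), followed by Plscr2 and Cfb, and for Cd44 it followed A2m (0.48) and preceded Lgals3. Zmynd15 was nearest to Aspg (0.49), followed by Fosl1 and Mtfr2. These values share arrays and scaling, and the measure weighs size as well as shape.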

How the data were processed

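Total RNA of mouse corpus callosum was profiled on 16 Agilent 44K single-colour arrays. The authors deposited spot intensities from Agilent Feature Extraction, version 11.0.1.1 per the file headers, background-subtracted within the array, and a GeneSpring value table in log2, in which the 75th percentile of each array sets the scale. For 100% of probes the median over the 3 untreated columns was 0 within 1e-06, a baseline found from the values. Log2 values were tested. Intensities, matched to columns, gave levels and background flags. Accessions in the scanner files named 27459 of 41174 probes (66.7%) with 1 gene through RefSeq (GRCm38.p6).

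Limma 3.58.1 (R 4.3.3) was fitted to untreated, 2-week and 4-week arrays for the CPZ comparisons (27499 probes) and to all 4 groups for regular diet (27779 probes), without covariates. Only probes that all arrays of 1 or more groups showed well above background were tested. A call was an adjusted p (Benjamini-Hochberg) under 0.05 with a 2-fold difference. Bounds set the mean of the brighter group against, on each dim array, the higher of the probe's own signal and the lowest signal well above background. A list's summed level adds the linear signals of its tested genes. The genes and lists were chosen with earlier results of these data known. Named genes were all 9 genes, each listed gene called in any comparison and otherwise up to 3 with the largest CPZ differences, and the 3 genes nearest each gene in pattern.

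The number of arrays limits the precision. The fits were checked on simulated data. Alternatives were other scalings, background corrections, filters, samples in the fit, slide and replicate blocks, array weights, the methods' one-way test, other probes, each array left out, and the recorded assignment of scanner files.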

Additional observations from a re-analysis of the deposited data

How the results depend on the processing

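With the arrays assigned by column name, all 527 differences from untreated computed for the 7 tested genes under the alternatives stayed above 0, leaving out the 2 second probes at background in controls, and the calls did not hold. Of these, 24 moved a fold by over 1.5 times, 9 of them with normexp, 5 with the slide as a fixed block and 4 with array weights. Counts of genes called follow, with the main counts being 0 at 2 weeks, 0 at 4 weeks and 3 on regular diet against untreated. They were 1 on regular diet under median scaling, 0 there with normexp background correction, 0 with the methods' one-way test, and 0 with scanner files under their recorded sample. The slide as a fixed block gave 3 at 4 weeks and 4 on regular diet, and the slide as a random block gave 1 at 2 weeks, 2 at 4 weeks and 5 on regular diet. Array weights, for which the fit stopped before converging, gave 6 in each of these 3 comparisons. Leaving out 1 array at a time gave 0 to 1 at 2 weeks, 0 to 2 at 4 weeks and 0 to 4 on regular diet, beside 0% to 0.209%, 0% to 0.584% and 0.0286% to 1.16% of all named genes called higher. On regular diet these shares were 0.644% with median scaling, 0.215% with normexp, 0.0429% with the methods' test, 0.122% with the replicate block and 0% by recorded sample, against 1.09%. Same-numbered arrays mostly did not deviate together (5 of 19 pairs with r over 0.1, r from -0.80 to 0.34). With so few arrays this cannot exclude a pairing by number. The fit with the replicate number as a block gave 0 calls on regular diet and changed no other count of calls. The cause of these shifts was not tested. Median scaling moved the median of all genes to -0.18 at 2 weeks, 0.15 at 4 weeks and -0.26 on regular diet against untreated, to 0.35 between 4 and 2 weeks and to -0.35 between regular diet and 4 weeks.

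Differences between 4 and 2 weeks of CPZ were small and turned sign under several settings. Median scaling gave 0.24 for Gfap, 0.19 for Osmr and 0.27 for Cd44. The slide as a fixed block gave 0.50 for Gfap, 0.53 for Vim, 0.12 for Osmr and 0.61 for Cd44, and as a random block 0.15, 0.020, 0.0069 and 0.23. Array weights gave 0.041 for Gfap, -0.022 for S1pr3 and 0.074 for Aspg, the replicate block 0.010 for Gfap, and the second Gfap probe 0.69. With 1 array left out, values ran from -0.36 to 0.36 for Gfap, -0.90 to 0.16 for Vim, -0.36 to 0.67 for Serpina3n, -0.43 to 0.39 for Osmr, -0.69 to 0.52 for Cd44 and -0.18 to 0.79 for S1pr3.

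Regular diet against 4 weeks turned sign as follows. Median scaling gave -0.17 for Vim, -0.13 for Osmr and -0.091 for Cd44, the slide as a fixed block -0.17 for Vim and -0.19 for Cd44, array weights -0.27 for Osmr and -0.031 for Cd44, and the second probes -0.23 for Gfap and -0.024 for Osmr. With 1 array left out, values ran from -0.25 to 0.40 for Vim, -0.31 to 0.46 for Osmr, -0.30 to 0.50 for Cd44 and -0.20 to 0.63 for S1pr3.

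With scanner files under their recorded sample, the 2-week difference was -0.32 for Vim, and the 4-week differences were -0.52 for Gfap, -1.15 for Vim, -0.33 for Serpina3n, -0.62 for Osmr, -0.93 for Cd44 and -0.47 for S1pr3. Between 4 and 2 weeks they gave -1.14 for Serpina3n and -0.95 for S1pr3, and on regular diet -0.21 for Gfap and -0.31 for Vim. Signal near background limits Lcn2, for which only bounds are given, and Steap4, for which there is none.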
